A study of Homo sapiens with 12 samples.

Results

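HaCaT keratinocytes given M5 and retapamulin were compared with HaCaT keratinocytes given M5 alone. The treatment label, M5+retapamulin, gives no order of addition. HaCaT is an immortalised human keratinocyte line. The comparison uses 6 of the 12 RNA sequencing libraries of the series, chosen by their treatment labels: 3 from cells with M5 (the M5 libraries) and 3 from cells with M5 and retapamulin (the retapamulin libraries). All 12 samples carry the genotype label WT and the same batch label. The other groups, also of 3, were cells with no treatment and cells with M5 and lefamulin. The series title names pleuromutilins, psoriasis, hnRNP-U and TNF-α. Doses, exposure times, solvents and the contents of M5 were not given in the sources used here, and nothing in the labels says whether M5 cells received the solvent of retapamulin. The replicates are not said to come from separate cultures, so the p-values measure the spread between these libraries, which may be technical.

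Retapamulin is a topical antibiotic of the pleuromutilin class, compounds that bind the large subunit of the bacterial ribosome and block peptide bond formation. M5 commonly denotes a combination of proinflammatory cytokines, and such a combination makes cultured keratinocytes express the chemokines, alarmins and antimicrobial peptides seen in psoriatic epidermis. Keratinocytes answer such cytokines through NF-kB, STAT and MAP kinase signalling. The epidermis also makes its own cholesterol and fatty acids for the skin barrier, under control of the transcription factors SREBF1 and SREBF2.

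The 6 libraries held 35626528 to 37520999 counts. Levels are given as CPM, counts scaled by TMM to a common library size, and genes were tested with edgeR over 14207 genes. A gene is said to have risen, fallen or been called where the adjusted p was under 0.05. Differences are log2 fold changes, retapamulin minus M5, ± SE. Of the genes tested, 34.1% were called higher and 38.0% lower with retapamulin, 9.81% higher by at least 2-fold and 8.66% lower by at least 2-fold. These shares are the background for each count below. The libraries of the 2 groups did not overlap for 10489 of the 14207 genes tested, so a lack of overlap was common. The median log2 fold change over all genes tested was -0.05. With library totals as the only scaling the median was -0.19, and 37.4% of called genes were higher in place of 47.3%.

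The 12 keratinocyte markers together stood at 4255 to 4376 CPM in the M5 libraries and at 7119 to 7271 CPM in the retapamulin libraries. They did not share a direction: 6 rose and 5 fell, at a median log2 fold change of 0.09, and the rise of the sum came mostly from LAMB3 and SFN, from a mean of 753 to 2519 CPM and from a mean of 528 to 1472 CPM. Among them, KRT14 was low in both groups, at 3.79, 3.21 and 3.27 CPM with M5 and 0.904, 0.413 and 0.874 CPM with retapamulin. Summed leukocyte markers stood at 1.56 to 1.98 and 0.233 to 0.531 CPM, with CD4 at 0. Fibroblast markers stood at 5.63 to 6.92 and 9.34 to 11.1 CPM, with LUM and THY1 at 0. Melanocyte markers stood at 9.94 to 12.7 and 19.5 to 21.4 CPM. The 3 endothelial markers, nearly all of it CDH5, stood at 116.7 to 121.8 and 99.8 to 115.2 CPM. The 2 of them tested went opposite ways, 1 lower and 1 higher, at log2 fold changes of -0.19 and 5.28. In bulk RNA, fewer cells of a kind and less RNA per cell cannot be told apart.

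**Figure D1:**
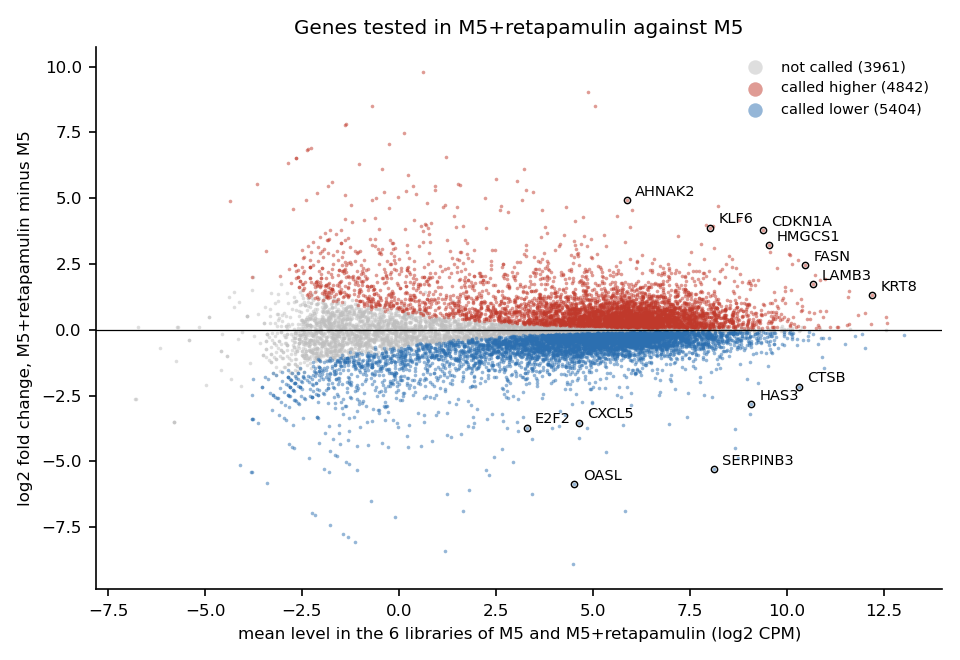
Each point is 1 of the 14207 genes tested, with its mean level over the M5 and retapamulin libraries (log2 CPM) on the horizontal axis and its log2 fold change, retapamulin minus M5, on the vertical axis. Genes called higher are red, genes called lower blue and the others grey. CDKN1A, at 3.78, and CTSB, at -2.16, lie far from 0 at high levels.

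The enzymes of cholesterol synthesis were higher with retapamulin along nearly the whole route. HMGCS1, a synthase at the start of the route, rose from 142, 142 and 146 CPM in the M5 libraries to 1339, 1368 and 1309 CPM in the retapamulin libraries. Its log2 fold change was 3.22 ± 0.04 (adjusted p = 5.11e-28), and the groups did not overlap. IDI1, which makes the activated isoprenoid unit, rose from 104, 102 and 107 CPM to 582, 588 and 583 CPM. Downstream of squalene, MSMO1, a sterol demethylase, rose from 55.4, 58.1 and 61 CPM in the M5 libraries to 489.6, 502 and 500.0 CPM in the retapamulin libraries, a log2 fold change of 3.10 ± 0.04 (adjusted p = 2.41e-26). CYP51A1, the lanosterol demethylase, rose from a mean of 285 to 1452 CPM, and SQLE, which oxidises squalene, from a mean of 108 to 532 CPM. In the mevalonate arm 8 of 9 tested genes rose and 1 fell, PMVK. From squalene to cholesterol 13 of 13 rose, 11 of them by at least 2-fold.

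Genes of sterol sensing and transport moved in both directions. MYLIP, a sterol-regulated ubiquitin ligase, fell from 15.1, 12.6 and 15.5 CPM in the M5 libraries to 3.25, 4.37 and 4.75 CPM in the retapamulin libraries (log2 fold change -1.80 ± 0.12), and the groups did not overlap. The escort protein gene SCAP and the protease gene MBTPS2, both needed to release active SREBF proteins, fell, with log2 fold changes of -0.47 ± 0.05 and -0.96 ± 0.06. Among sterol transporters, NPC1, which exports cholesterol from lysosomes, rose from a mean of 136 to 691 CPM, and STARD4, a cytosolic sterol carrier, from a mean of 47.4 to 210.4 CPM. ABCA1, the cholesterol efflux pump, fell from 0.909, 1.04 and 1.15 CPM in the M5 libraries to 0.12, 0.118 and 0.0291 CPM in the retapamulin libraries (log2 fold change -3.49 ± 0.51, adjusted p = 1.27e-06). TMEM97, a sterol-regulated membrane protein, fell from a mean of 74.9 to 52.4 CPM. In cells with lefamulin its mean was 123 CPM.

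Fatty acid enzymes rose with the sterol genes. FASN, fatty acid synthase, rose from 455, 423 and 434 CPM in the M5 libraries to 2381, 2426 and 2397 CPM in the retapamulin libraries (log2 fold change 2.46 ± 0.03), and SCD, which desaturates stearate, from 774, 770.2 and 814 CPM to 2877, 2981 and 2959 CPM (log2 fold change 1.90 ± 0.03). The list for fatty acid synthesis and desaturation had 13 of 16 tested members higher and 1 lower. That member was ACACB, the acetyl-CoA carboxylase tied to fatty acid oxidation, which fell from 8.04, 7.09 and 7.99 CPM to 2.53, 1.8 and 2.15 CPM. Triglyceride genes were mixed, with 11 of 16 higher and 5 lower. The lipase genes MGLL and PNPLA3 rose from a mean of 0.162 to 4.2 CPM and from a mean of 0.251 to 5.08 CPM. DGAT2, which completes triglycerides, was at 0.294, 0.605 and 0.268 CPM in the M5 libraries and at 0, 0 and 0.0291 CPM with retapamulin, a ratio of 39.2 with a 95% counting interval of 6.68 to 1586. Its partner DGAT1 fell from a mean of 14 to 9.26 CPM.

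**Figure D2:**
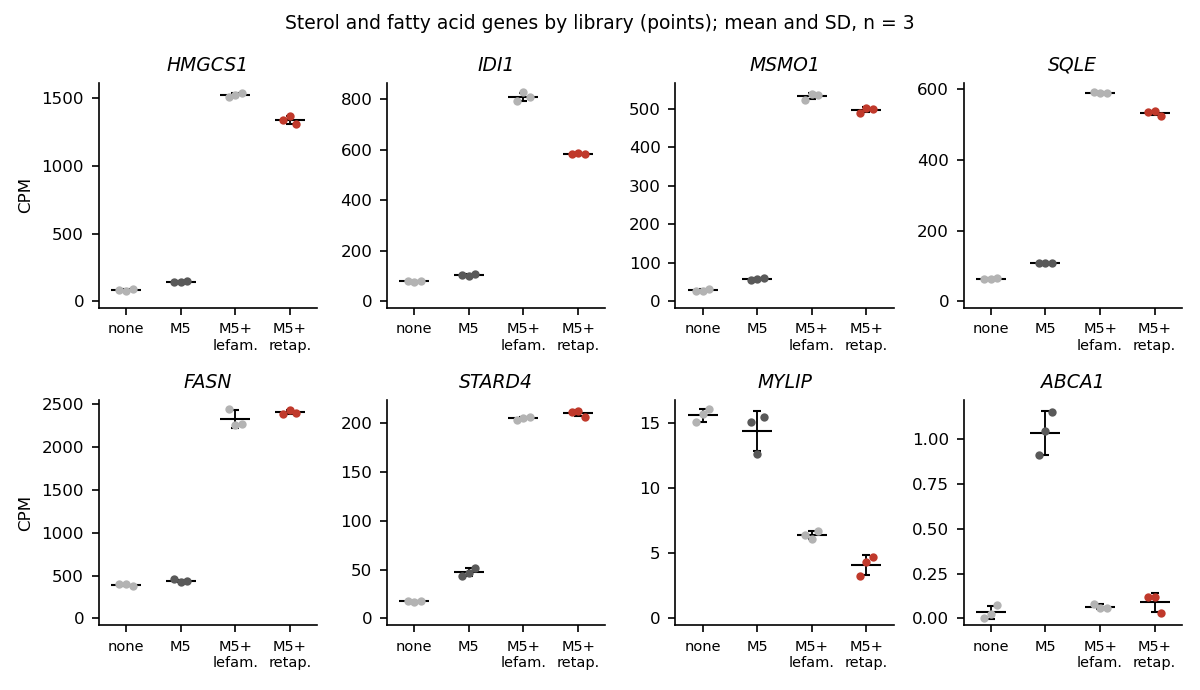
Levels in CPM of 8 sterol and fatty acid genes in the 12 libraries, by group; points are libraries and bars are mean and SD of 3. In the upper row and for FASN and STARD4 the retapamulin libraries (red) lie above the M5 libraries (dark grey), and for MYLIP and ABCA1 they lie below.

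A promoter stretch is shown for the gene of the sterol lists that held the sterol regulatory element letters TCACNCCAC on either strand. RefSeq windows from 250 bases before to 50 bases after a start (GRCh38.p14) existed for 27 of the 34 tested genes in the mevalonate, squalene and sterol sensing lists. Of these, 1 held the motif, against 1.08% of the windows of all tested genes and 1.15% of all windows in the table. The match is in SREBF2, itself the main activator of sterol genes, on the plus strand at chr22:41832952-41833000, 133 to 125 bases before the start. Capitals mark the match.
SREBF2: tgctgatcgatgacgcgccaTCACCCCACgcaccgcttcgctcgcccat
SREBF2 rose by a log2 fold change of 0.66. For the others, no match says only that these exact letters are not in the window.

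Immediate early genes were higher with retapamulin. These genes encode transcription factors induced within minutes of growth factor or stress signals. KLF6, a zinc finger factor, rose from 33.1, 33.1 and 33.4 CPM in the M5 libraries to 482, 496 and 492 CPM in the retapamulin libraries, a log2 fold change of 3.88 ± 0.04 (adjusted p = 3.15e-28). EGR1 rose from 10.4, 9.01 and 10.8 CPM to 96.9, 108 and 104 CPM (log2 fold change 3.35 ± 0.07), and KLF2 from 0.588, 0.192 and 0.563 CPM to 9.76, 12 and 13.9 CPM (log2 fold change 4.71 ± 0.26). The levels of each of these in the retapamulin libraries were all above those in the M5 libraries. In the list of EGR, KLF and IER genes 12 of 15 rose and 0 fell. Of 9 subunits of AP-1, the FOS and JUN dimer, 8 rose, 7 by at least 2-fold. FOSL1 rose from 101, 105 and 101 CPM in the M5 libraries to 644, 659.7 and 703 CPM in the retapamulin libraries (log2 fold change 2.71 ± 0.04) and FOSB from a mean of 3.33 to 32.4 CPM. FOSL2 was the member that fell, from 294, 287 and 299.5 CPM to 174, 175 and 174 CPM (log2 fold change -0.75 ± 0.04).

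Negative feedback genes of MAP kinase signalling rose with them, 12 of 15 against 3 that fell. DUSP5, a nuclear ERK phosphatase, rose from 22.1, 23.2 and 23.8 CPM in the M5 libraries to 266, 274 and 273 CPM in the retapamulin libraries (log2 fold change 3.56 ± 0.05, adjusted p = 4.83e-26). SPRY2, an inhibitor of receptor tyrosine kinase signalling, rose from a mean of 11.1 to 40.9 CPM, and ERRFI1, an inhibitor of the EGF receptor, from a mean of 41.1 to 188 CPM. Ligands of that receptor went both ways. HBEGF rose from 52.9, 51.6 and 50.4 CPM to 183, 193 and 189 CPM (log2 fold change 1.87 ± 0.04) and AREG from 40.3, 41.4 and 37.2 CPM to 74.1, 81.3 and 82.1 CPM (log2 fold change 1.00 ± 0.05), while EPGN fell from a mean of 3.61 to 0.413 CPM and NRG1, a ligand of related receptors, from a mean of 152 to 48.5 CPM. In a list of the factors YAP1, WWTR1 and TEAD1 to TEAD4 and of genes often used as readouts of YAP, 11 of 16 rose, among them ANKRD1 (from a mean of 7.71 to 42.5 CPM) and CCN1 (from a mean of 50.2 to 227 CPM). The 3 that fell were TEAD2, TEAD4 and TGFB2 (from a mean of 16.7 to 1.66 CPM).

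Chemokines fell in both lists. All 6 of 6 neutrophil-attracting and 8 of 8 monocyte- and lymphocyte-attracting chemokines tested were lower, with median log2 fold changes of -1.63 and -2.06. CXCL5 fell from 44.1, 46.4 and 46.9 CPM in the M5 libraries to 4.52, 3.54 and 3.85 CPM in the retapamulin libraries (log2 fold change -3.53 ± 0.10, adjusted p = 2.16e-20), and CXCL3 from 202, 194 and 205 CPM to 53.7, 56.5 and 54.5 CPM (log2 fold change -1.87 ± 0.05). CXCL9, a ligand of CXCR3 on T cells, fell from 4.68, 4.12 and 5.5 CPM to 0.482, 0.177 and 0.175 CPM, and CCL20, the ligand of CCR6, from 14.8, 14.8 and 14.1 CPM to 2.2, 2.27 and 2.56 CPM. CXCL8 was still at 555, 556 and 553 CPM with retapamulin, against 934, 1014 and 1012 CPM with M5. In untreated cells its mean was 6.63 CPM. The smallest fall was that of CXCL16, from 312, 309 and 305 CPM to 268, 266 and 278 CPM (log2 fold change -0.19 ± 0.03).

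Interleukins split. IL1B fell from 454, 463 and 475 CPM in the M5 libraries to 75, 79.2 and 81.7 CPM in the retapamulin libraries (log2 fold change -2.56 ± 0.05, adjusted p = 9.44e-24), and IL1A from 386, 409 and 406 CPM to 68.1, 73.6 and 70.9 CPM (log2 fold change -2.50 ± 0.05). IL1RN, which encodes the antagonist of both, rose from 1.07, 1.68 and 1.74 CPM in the M5 libraries to 39, 37.4 and 37.8 CPM in the retapamulin libraries, a log2 fold change of 4.67 ± 0.11 (adjusted p = 9.56e-22). IL36G, a related cytokine, rose as well, from 10.5, 11.7 and 10.7 CPM to 59.9, 60.0 and 57.2 CPM (log2 fold change 2.43 ± 0.06), and IL33, an alarmin, fell from a mean of 2.82 to 0.129 CPM. In the IL-20 subfamily IL20 fell from 9.94, 11.5 and 10.4 CPM to 0.392, 0.295 and 0.408 CPM (log2 fold change -4.85 ± 0.23), and its receptor chain gene IL20RA from a mean of 1.25 to 0.138 CPM. IL24, another ligand of these receptors, rose from 13.5, 13.9 and 13.9 CPM to 24.2, 25.4 and 27.8 CPM (log2 fold change 0.91 ± 0.09).

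Other cytokines also went both ways. CSF2, which encodes GM-CSF, rose from 1.76, 1.59 and 1.64 CPM in the M5 libraries to 24.3, 25.1 and 26.6 CPM in the retapamulin libraries (log2 fold change 3.92 ± 0.11, adjusted p = 3.5e-20). IL11 rose from 4.81, 4.7 and 3.97 CPM to 44.1, 39 and 41.9 CPM (log2 fold change 3.21 ± 0.11), and IL23A, a subunit of the cytokine that maintains IL-17 producing T cells, from 7.11, 7.12 and 7.02 CPM to 31, 29.9 and 30.1 CPM (log2 fold change 2.10 ± 0.07). IL6 fell from 19.2, 17.9 and 18.4 CPM to 5.66, 6.46 and 6.26 CPM (log2 fold change -1.59 ± 0.10), and CSF1 from a mean of 44.1 to 19.6 CPM. On the receptor side IL6R rose from a mean of 3.51 to 29 CPM and OSMR from a mean of 463 to 897 CPM. PIM1, a kinase gene commonly induced through STAT signalling, rose from a mean of 33.9 to 180.0 CPM, while SOCS1, the feedback inhibitor of JAK kinases, fell from a mean of 16.4 to 4.05 CPM, and JAK2 from a mean of 22.1 to 8.45 CPM.

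**Figure D3:**
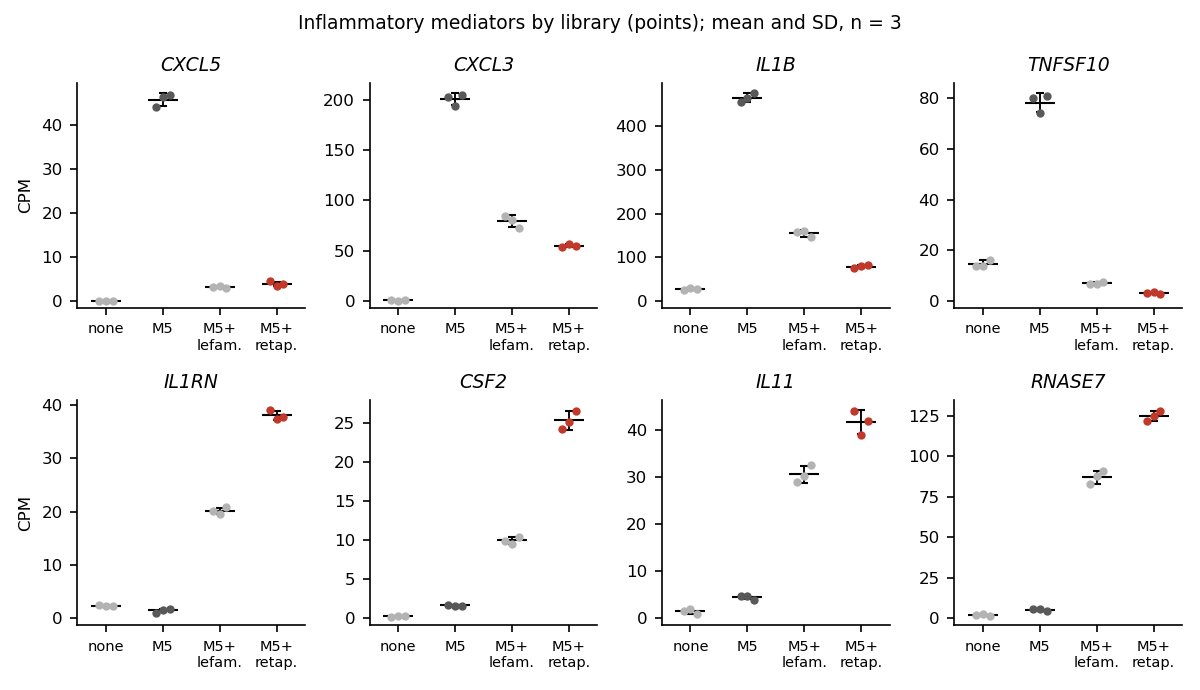
Levels in CPM of 8 inflammatory mediators in the 12 libraries, by group; points are libraries and bars are mean and SD of 3. CXCL5, CXCL3, IL1B and TNFSF10 are lower in the retapamulin libraries (red) than in the M5 libraries (dark grey), and IL1RN, CSF2, IL11 and RNASE7 are higher.

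Around NF-kB several inhibitors were lower with retapamulin. TNIP3, an inhibitor of NF-kB signalling, fell from 45.8, 47 and 49.9 CPM in the M5 libraries to 2.44, 2.62 and 3.06 CPM in the retapamulin libraries (log2 fold change -4.13 ± 0.11, adjusted p = 8.22e-21). NFKBIA, which encodes the inhibitor IkB-alpha, fell from 397, 396 and 413 CPM to 186, 182 and 186 CPM (log2 fold change -1.12 ± 0.03), and BCL3, a nuclear relative, from a mean of 65.9 to 41.3 CPM. Their means in untreated cells were 0.0673, 77 and 8.25 CPM. RELA, the main activating subunit, rose from 153, 152 and 148 CPM to 219, 223 and 225 CPM (log2 fold change 0.56 ± 0.03). In the whole list 6 of 17 rose and 8 fell. Of the genes proximal to TNF 8 of 13 rose, among them TRAF1 (from a mean of 6.7 to 13.5 CPM) and the deubiquitinase gene CYLD (from a mean of 37.3 to 57.3 CPM), and 5 fell. The largest fall there was in the death receptor gene TNFRSF21, from 148, 150.2 and 149 CPM to 52.8, 53.6 and 52.4 CPM (log2 fold change -1.50 ± 0.04).

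TNF and HNRNPU, which encode the proteins of the title, were both lower with retapamulin. TNF was a low transcript, at 5.29, 4.73 and 5.33 CPM with M5 and 2.92, 2.18 and 2.8 CPM with retapamulin, and had a mean of 0.468 CPM in untreated cells. HNRNPU, an RNA-binding nuclear matrix protein, was at 987, 938 and 996 CPM and 685, 667 and 671 CPM. Its log2 fold change of -0.53 ± 0.03 was shared in direction by most of its family. Of 27 hnRNP genes, 22 fell and 2 rose, at a median of -0.23. HNRNPAB fell from a mean of 343 to 204 CPM and HNRNPC from a mean of 969.6 to 659 CPM. The risers were PCBP1 and RALY, at log2 fold changes of 0.19 ± 0.03 and 0.11 ± 0.04, and that of RALY turned to -0.03 with library totals and on log2 FPKM. Of 12 genes for SR splicing proteins 8 fell and 0 rose. Factors that bind AU-rich elements of cytokine mRNAs were mixed. ZFP36, which destabilises TNF mRNA, rose from 27.9, 24.9 and 27.8 CPM to 65.6, 70.4 and 75.2 CPM (log2 fold change 1.39 ± 0.06), and ELAVL1, a stabilising factor, fell from 196, 194 and 195 CPM to 142, 147 and 146 CPM (log2 fold change -0.43 ± 0.03).

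Interferon-stimulated genes were mostly lower, 23 of 35 against 6 that rose, at a median log2 fold change of -0.66. OASL fell from 44.8, 46.2 and 44.7 CPM in the M5 libraries to 0.542, 0.767 and 0.99 CPM in the retapamulin libraries (log2 fold change -5.87 ± 0.17). TRIM22 fell from 32.7, 31.6 and 33.4 CPM to 2.65, 1.86 and 3.12 CPM and IFI44 from 11.2, 11.7 and 11.4 CPM to 1.39, 1.12 and 1.25 CPM. STAT2, a subunit of the factor that drives such genes, rose from 63.8, 64.6 and 61.3 CPM to 149, 159 and 154 CPM (log2 fold change 1.29 ± 0.04), and OAS1 from a mean of 12.8 to 20.7 CPM. The 3 subunits that turn the proteasome into the immunoproteasome were also lower. PSMB9 fell from 31.1, 31 and 29.6 CPM to 9.16, 9.53 and 9.23 CPM, PSMB8 from a mean of 67.3 to 29.7 CPM and PSMB10 from a mean of 29.6 to 12.2 CPM. NLRC5, the activator of MHC class I genes, rose from 8.5, 10.4 and 9.81 CPM to 27, 27.7 and 29.2 CPM (log2 fold change 1.55 ± 0.08).

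Among molecules that contact T cells, TNFSF10, the death ligand TRAIL, fell from 79.9, 73.9 and 80.7 CPM in the M5 libraries to 3.19, 3.48 and 2.68 CPM in the retapamulin libraries (log2 fold change -4.65 ± 0.09, adjusted p = 1.59e-23). The costimulator gene TNFSF9 rose from 17.4, 16.4 and 16.1 CPM to 107, 106 and 109 CPM (log2 fold change 2.69 ± 0.05), and CD274, which encodes PD-L1, from a mean of 49.6 to 82.5 CPM. Complement genes were mostly lower, 9 of 13. The proteases C1R and C1S fell from a mean of 179 to 34.8 CPM and from a mean of 89.2 to 25.9 CPM, and the shielding protein genes CD55 and CD46 rose from a mean of 103 to 269 CPM and from a mean of 331 to 568 CPM.

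Of 6 tested genes for antimicrobial proteins and antiproteases 5 fell and 1 rose, RNASE7, while 7 of the 13 in the list had too few counts to test. Among those 7 were the beta-defensin gene copies DEFB103A and DEFB103B, with 0 counts in the M5 libraries and 30 and 11 counts in the retapamulin libraries. RNASE7, a ribonuclease of the skin surface, rose from 5.61, 5.58 and 4.75 CPM in the M5 libraries to 122, 125 and 128 CPM in the retapamulin libraries (log2 fold change 4.55 ± 0.07, adjusted p = 9.31e-26). PI3, the elastase inhibitor elafin, fell from 287, 295 and 296 CPM to 103, 109.8 and 110.3 CPM (log2 fold change -1.44 ± 0.04), SLPI from a mean of 96.9 to 38.9 CPM and LCN2, which binds bacterial siderophores, from a mean of 819 to 606 CPM. S100A9, a subunit of calprotectin, fell from 969, 946 and 946 CPM in the M5 libraries to 104, 101 and 108 CPM in the retapamulin libraries (log2 fold change -3.20 ± 0.04), and S100A7, psoriasin, from 54.8, 53.9 and 51.2 CPM to 3.22, 4.48 and 4.4 CPM. S100A10 and S100A16 were among the 8 of 15 S100 genes that rose, from a mean of 218 to 575 CPM and from a mean of 155 to 403 CPM. Clade B serpin genes went both ways, with 6 of 10 lower and 3 higher, at a median log2 fold change of -0.54. SERPINB13 fell from 226, 224 and 239.9 CPM to 19.2, 19.9 and 17.8 CPM (log2 fold change -3.60 ± 0.06). The near-identical pair SERPINB3 and SERPINB4 fell from a mean of 544 to 13.8 CPM and from a mean of 832 to 28.2 CPM. How reads shared within that pair, or among S100A7 copies, were counted is not known, so their values are uncertain.

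**Figure D4:**
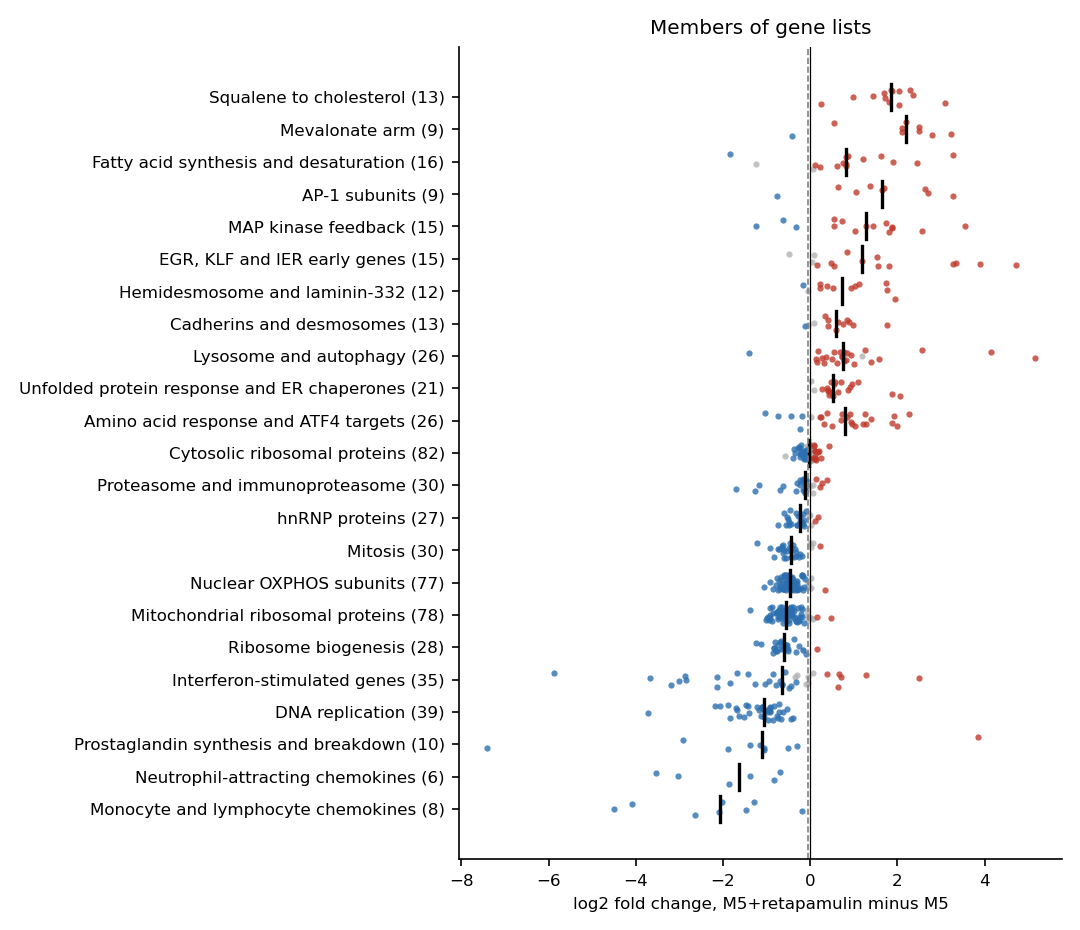
Log2 fold changes, retapamulin minus M5, of the tested members of 23 gene lists, with the number tested in parentheses. Points are genes (red called higher, blue called lower, grey not called), black bars are list medians and the dashed line is the median of all genes tested, -0.05. Sterol lists lie highest and chemokines lowest by their medians among the lists drawn.

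Genes of basement membrane attachment rose. LAMB3, a chain of laminin-332, rose from 783, 734 and 741 CPM in the M5 libraries to 2468, 2541 and 2546 CPM in the retapamulin libraries (log2 fold change 1.74 ± 0.03, adjusted p = 2.71e-24), and PLEC, the linker plectin, from a mean of 232 to 788 CPM. Of 12 genes of hemidesmosomes and laminin-332 10 rose and 1 fell, ITGB4 (from a mean of 417 to 372 CPM). Cell junction genes rose too, 10 of 13, with DSC2, a desmosomal cadherin, from 62, 64.6 and 66.5 CPM to 219, 222 and 213 CPM, and CDH1, E-cadherin, from 337, 334 and 342 CPM to 654, 667 and 660.0 CPM. CLDN4, a tight junction claudin, rose from 278, 257 and 264 CPM in the M5 libraries to 1857, 1946 and 1939 CPM in the retapamulin libraries (log2 fold change 2.85 ± 0.04). Per length, CLDN4 stood at a mean of 159 FPKM with M5 and 1039 FPKM with retapamulin.

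Of the plasminogen activators, urokinase rose and the tissue type fell. PLAU, urokinase, rose from 174, 175 and 175 CPM in the M5 libraries to 1333, 1323 and 1371 CPM in the retapamulin libraries (log2 fold change 2.94 ± 0.03, adjusted p = 3.26e-28), and its receptor gene PLAUR from 119.9, 116 and 116 CPM to 319, 326 and 344 CPM. PLAT, the tissue-type activator, fell from 817, 774 and 781 CPM to 215, 213 and 221 CPM (log2 fold change -1.87 ± 0.03). ANXA2, which binds plasminogen at the cell surface with S100A10, rose from a mean of 1646 to 4566 CPM. Of the matrix proteases, the collagenase gene MMP1 and the stromelysin gene MMP10 rose from a mean of 8.04 to 54.3 CPM and from a mean of 5.68 to 52 CPM, and MMP7 fell from a mean of 85.7 to 39.1 CPM. The hyaluronan synthases moved in opposite directions. HAS3 fell from 966, 922 and 960.1 CPM to 129, 133 and 138 CPM (log2 fold change -2.83 ± 0.04) and HAS2 rose from 4.62, 4.09 and 4.08 CPM to 49.9, 48.5 and 52 CPM (log2 fold change 3.55 ± 0.08). Per length, HAS3 went from a mean of 193 to 24.6 FPKM and HAS2 from 1.02 to 10.9 FPKM, so HAS3 remained the more abundant.

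Of 5 tested keratins of simple epithelium 3 rose and 1 fell, and most keratins of stratified epithelium fell. KRT8 went from 2771, 2628 and 2638 CPM in the M5 libraries to 6634, 6645 and 6855 CPM in the retapamulin libraries (log2 fold change 1.32 ± 0.03), and its partner KRT18 from 1869, 1814 and 1835 CPM to 4237, 4310 and 4451 CPM (log2 fold change 1.24 ± 0.03). Their mean levels per length were 1363 and 1242 FPKM with M5 and 3107 and 2663 FPKM with retapamulin. KRT19 rose from a mean of 824 to 1838 CPM, and KRT7 fell from a mean of 1626 to 1371 CPM. Of 11 stratified keratins 7 fell and 3 rose. KRT17, a keratin of stressed epidermis, fell from 18.6, 18.2 and 19.6 CPM to 4.07, 4.96 and 4.83 CPM, and the basal keratin KRT15 rose from 85.5, 80.0 and 78.8 CPM to 232, 239 and 241 CPM (log2 fold change 1.54 ± 0.04). Counts of KRT14, KRT17 and KRT6B may be split with near copies. Transcription factors of squamous epithelium mostly rose, 14 of 18 against 4 that fell, at a median log2 fold change of 0.52. TP63, the transcription factor of basal keratinocytes, fell from 217, 229.6 and 238 CPM to 83.3, 90.3 and 86 CPM (log2 fold change -1.40 ± 0.04). GRHL3 and OVOL1, factors of late differentiation, rose from a mean of 10.2 to 25.9 CPM and from a mean of 11.2 to 45.8 CPM. SOX2 had a ratio, M5 over retapamulin, of 463 with a counting interval of 82.7 to 18310, from 4.46, 4.29 and 4.93 CPM to 0, 0 and 0.0291 CPM.

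Of 14 cornified envelope genes, which encode the protein shell of dead surface cells, 9 rose and 1 fell, TCHH. SPRR1B rose from 0.267, 0.357 and 0.402 CPM to 4.64, 4.51 and 6.44 CPM (log2 fold change 3.91 ± 0.31). The SPRR genes are close relatives, and reads shared among them are uncertain. PRR9, at 58.4, 57.2 and 59.7 CPM with retapamulin, and SBSN, with a log2 fold change of 2.82, were among the others that rose. Promoter windows existed for 9 of these genes, and 8 of them (88.9%) held the AP-1 letters TGANTCA on either strand. The share was 5.09% over all tested genes, 7.76% over all windows and 9.97% over the genes called higher by at least 2-fold. Among the 8 were the related genes SPRR1A, SPRR1B and SPRR2A, so the matches are not independent. The genes with a match were not of 1 direction: 5 rose, 1 fell and the other 2, IVL and FLG, were not called. Stretches of 4 genes that rose are shown 5′ to 3′ along the gene, with the match in capitals.
PRR9, chr1:153217427-153217473, plus strand: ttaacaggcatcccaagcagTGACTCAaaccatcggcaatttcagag
SPRR1A, chr1:152983953-152983999, plus strand: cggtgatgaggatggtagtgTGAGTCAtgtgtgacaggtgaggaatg
SPRR1B, chr1:153031072-153031118, plus strand: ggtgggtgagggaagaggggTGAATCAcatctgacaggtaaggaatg
SBSN, chr19:35528356-35528402, minus strand: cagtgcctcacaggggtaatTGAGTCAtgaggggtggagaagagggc
In these the match begins 137, 108, 111 and 71 bases before the start. A match describes letters, and binding at these places was not measured.

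Genes of DNA replication fell without exception among the 39 tested, 22 of them by at least 2-fold. E2F1, a transcription factor that switches on S phase genes, fell from 55, 52.4 and 50.9 CPM in the M5 libraries to 10.4, 12.4 and 11.9 CPM in the retapamulin libraries (log2 fold change -2.19 ± 0.07, adjusted p = 1.66e-19). E2F2, its relative, fell from 17.4, 17.8 and 19.5 CPM to 1.45, 0.678 and 2.01 CPM (log2 fold change -3.72 ± 0.20), and CCNE2, a cyclin that starts S phase, from 32.4, 34.5 and 35.8 CPM to 6.99, 10.1 and 7.25 CPM (log2 fold change -2.08 ± 0.09). The groups did not overlap for any of these. CDKN1A, the CDK inhibitor p21, rose from 92.6, 88.5 and 90.2 CPM in the M5 libraries to 1213, 1240 and 1272 CPM in the retapamulin libraries (log2 fold change 3.78 ± 0.03, adjusted p = 1.78e-29). In untreated cells its mean was 28.1 CPM. CDKN2B, another CDK inhibitor, rose from a mean of 6.17 to 20.9 CPM, and CDKN2C fell from a mean of 4.92 to 1.27 CPM. Mitotic genes fell less far, 26 of 30 with a median log2 fold change of -0.45 against -1.05 for replication. KIF20A, a kinesin of cytokinesis, fell from a mean of 123 to 52.8 CPM and CCNA2, cyclin A, from a mean of 180.0 to 95.2 CPM. The member that rose, CDC25C, had a log2 fold change of 0.23 ± 0.08 and was not called with library totals. Among p53 targets, 13 of 20 rose, with CDKN1A, PLK3 (from a mean of 11.8 to 42.1 CPM) and GADD45A (from a mean of 12.4 to 29.9 CPM) the highest, and 5 fell.

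The letters TTTNGCGC, a form of the E2F binding site, were in the promoter window of 15 of the 34 replication genes with a window (44.1%), on either strand. The share was 3.00% over all tested genes, 1.83% over all windows and 4.47% over the genes called lower by at least 2-fold. The median log2 fold change was -1.05 for the 15 genes with a match and -1.03 for the 19 without. Stretches of the 6 with the largest falls and a match before the start follow, 5′ to 3′ along the gene, with the match in capitals.
E2F2, chr1:23531244-23531291, minus strand: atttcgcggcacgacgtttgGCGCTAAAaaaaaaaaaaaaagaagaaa
E2F1, chr20:33686386-33686425, minus strand: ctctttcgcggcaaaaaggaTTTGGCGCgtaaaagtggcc
MCM6, chr2:135876502-135876549, minus strand: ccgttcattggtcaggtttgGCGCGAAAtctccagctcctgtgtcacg
POLE2, chr14:49688268-49688315, minus strand: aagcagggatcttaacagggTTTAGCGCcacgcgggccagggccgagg
CDT1, chr16:88803556-88803603, plus strand: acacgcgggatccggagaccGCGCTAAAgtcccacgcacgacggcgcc
POLA2, chr11:65261889-65261936, plus strand: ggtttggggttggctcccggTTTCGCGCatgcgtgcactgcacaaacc
MCM6 is a subunit of the replicative helicase, CDT1 loads it, and POLE2 and POLA2 belong to replicative polymerases. The log2 fold changes of MCM6, POLE2 and POLA2 were -1.83, -1.22 and -0.98. In E2F1 the match lies 20 to 13 bases before the start, and in CDT1 213 to 206 bases before it. Motif matches of different kinds can overlap, and 6 motifs were searched in the windows of every gene list.

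Ribosome production and mitochondrial genes encoded in the nucleus were lower by smaller amounts that most members shared. Of 28 ribosome biogenesis genes 26 fell, among them BOP1 (from 102, 93.5 and 94.8 CPM to 40.0, 41.7 and 41.5 CPM) and the nucleolar protein gene NOP56 (from 270.3, 279 and 267 CPM to 126, 125 and 121 CPM). Mitochondrial ribosomal proteins fell in 69 of 78 cases, with a median log2 fold change of -0.55. MRPL16 fell from 59, 56.6 and 57.5 CPM to 22, 21.5 and 22.6 CPM (log2 fold change -1.39 ± 0.05) and MRPL49 rose from 108, 106 and 106 CPM to 151, 146 and 149 CPM (log2 fold change 0.48 ± 0.04). Nuclear genes for respiratory chain subunits fell in 71 of 77 cases, with a median of -0.46. CYC1, cytochrome c1, fell from a mean of 165 to 87.1 CPM, and the chaperone gene HSPD1 from a mean of 1027 to 554 CPM. The 13 mRNAs that mitochondria themselves encode did not share a direction, with 5 higher and 4 lower. ND3 rose from 597, 725 and 661 CPM to 1188, 1453 and 1343 CPM (log2 fold change 1.01 ± 0.07), and ND5 fell from 1455, 1710 and 1506 CPM to 1119, 1194 and 1231 CPM (log2 fold change -0.40 ± 0.05). Nuclear copies of mitochondrial DNA make these counts uncertain. Cytosolic ribosomal proteins had a median of -0.03, near that of all genes. Their count depended on the scaling: 14 rose and 29 fell of 82, but 2 rose and 67 fell with library totals, and 17 fell without retapamulin replicate 2.

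**Figure D5:**
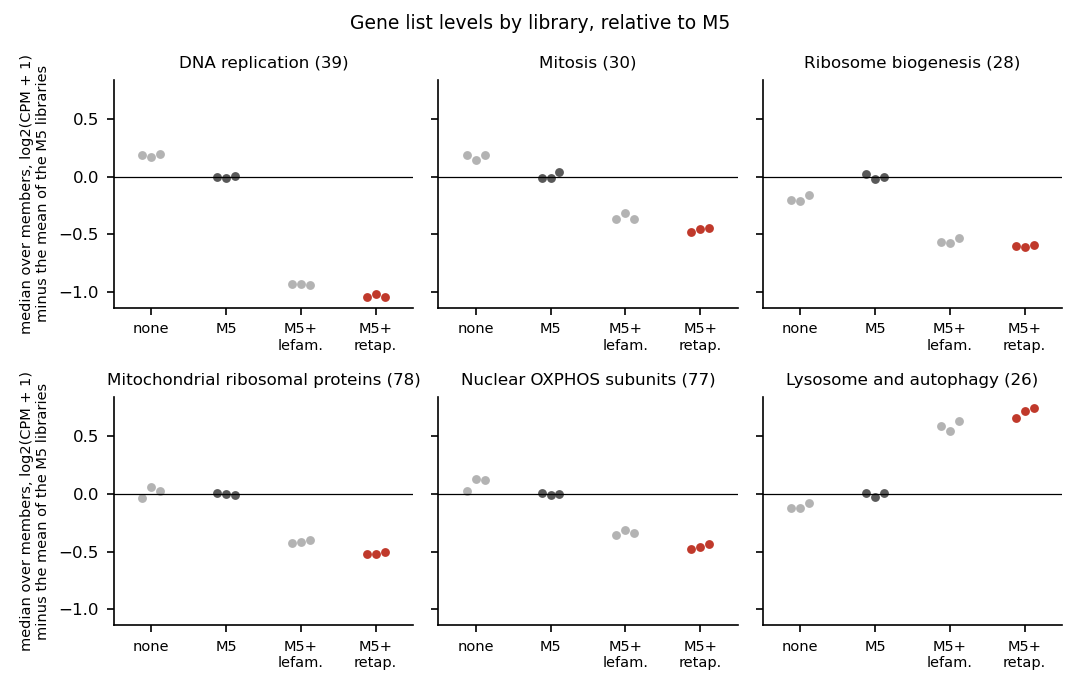
Median over the tested members of 6 gene lists of log2(CPM + 1) in each library minus the mean of the M5 libraries, by group; each point is a library and parentheses give the members tested. For DNA replication the retapamulin libraries lie at -1.04, -1.01 and -1.04 and the lefamulin libraries at -0.93, -0.93 and -0.94.

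Stress genes of the endoplasmic reticulum and of amino acid supply rose. Of 21 genes of the unfolded protein response 19 rose and 0 fell. HERPUD1, of the degradation route for misfolded proteins, rose from 31.5, 29.6 and 31 CPM to 110.5, 111 and 116 CPM (log2 fold change 1.87 ± 0.04), and DNAJB9 from a mean of 18 to 74.5 CPM. Of 26 genes linked to ATF4, 20 rose, among them PPP1R15A, a phosphatase subunit that restores translation, from 109, 106 and 107 CPM in the M5 libraries to 516, 508 and 511 CPM in the retapamulin libraries (log2 fold change 2.25 ± 0.03). TRIB3 rose from a mean of 51.9 to 196 CPM and DDIT4, an inhibitor of mTORC1 signalling, from a mean of 92.9 to 367 CPM. SLC7A5 and SLC3A2, the 2 chains of an amino acid importer, went the other way, from a mean of 2609 to 1271 CPM and from a mean of 848 to 621 CPM. Cytosolic tRNA synthetases were split, with 10 of 20 higher and 6 lower. With library totals 10 were lower. GARS1 rose from 180.3, 186 and 194 CPM to 364, 377 and 359 CPM, and FARSB fell from 77.4, 81.6 and 81.9 CPM to 41.8, 39.4 and 42.9 CPM. The amino acid response letters TGATGNAA were in 6 of the 16 synthetase windows (37.5%), against 1.75% over all tested genes and 3.67% over all windows. Of those 6 genes 5 rose and 0 fell, and of the 10 without a match 5 rose and 3 fell. Of the 4 with no window 0 rose and 3 fell. A relation between match and direction was not tested. Matches in 2 that rose are shown, in capitals.
AARS1, chr16:70289666-70289713, minus strand: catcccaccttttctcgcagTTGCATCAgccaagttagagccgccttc
IARS1, chr9:92293698-92293730, minus strand: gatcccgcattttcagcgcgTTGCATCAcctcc
Their log2 fold changes were 0.57 and 0.48.

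Genes of lysosomes and autophagy rose, 24 of 26. WIPI1, which acts in autophagosome formation, rose from 2.91, 2.58 and 1.98 CPM in the M5 libraries to 44.7, 44.6 and 43.8 CPM in the retapamulin libraries (log2 fold change 4.15 ± 0.09, adjusted p = 8.19e-22). ULK1, the kinase that starts autophagy, rose from 26.6, 27.4 and 27.1 CPM to 155, 160.2 and 160.5 CPM (log2 fold change 2.55 ± 0.05). The member that fell was TFEB, a transcription factor of lysosomal genes, from 5, 4.18 and 4.13 CPM to 1.42, 1.86 and 1.78 CPM (log2 fold change -1.39 ± 0.20). Cathepsins, the proteases of lysosomes, were split, with 5 of 10 higher and 4 lower. CTSB fell from 2140, 2050 and 2069 CPM to 460.3, 462 and 479 CPM (log2 fold change -2.16 ± 0.03), CTSC from a mean of 315 to 145 CPM and CTSH from a mean of 101 to 47.8 CPM, while CTSL rose from a mean of 53.9 to 89.7 CPM and CTSS from a mean of 29.2 to 53.7 CPM. In untreated cells CTSB had a mean of 327 CPM.

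Retapamulin libraries were compared directly with those of lefamulin, which has the same pleuromutilin core and another side chain. Neither dose is given, so a difference between the compounds and a difference in exposure cannot be told apart. Both comparisons with M5 use the same M5 libraries. Of the genes tested, 21.2% were higher with retapamulin than with lefamulin and 18.8% lower. That balance depended on the scaling: 1663 genes were higher and 4434 lower with library totals, in place of 3017 and 2672. Of the EGR, KLF and IER genes 9 of 15 were higher with retapamulin and 2 lower, and of the AP-1 subunits 6 of 9 were higher and 0 lower. Also higher were 11 of 15 MAP kinase feedback genes and 11 of 12 hemidesmosome genes. KLF6 was at 202, 209 and 209 CPM with lefamulin and 482, 496 and 492 CPM with retapamulin, a log2 difference of 1.25 ± 0.03 (adjusted p = 5.51e-18). ANXA2 differed by 0.73 ± 0.03. The widest gaps above 0 included IL24, at 5.53, 4.86 and 5.98 CPM with lefamulin and 24.2, 25.4 and 27.8 CPM with retapamulin (log2 difference 2.24 ± 0.10, adjusted p = 1.24e-14), which was above its M5 level with retapamulin and below it with lefamulin. HMOX1, heme oxygenase, was at 1.08, 1.5 and 1.65 CPM and 5.82, 5.19 and 5.18 CPM (log2 difference 1.94 ± 0.26).

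Cholesterol genes were lower with retapamulin than with lefamulin, by small amounts, in 11 of 13 genes from squalene onward and 6 of 9 of the mevalonate arm. IDI1 was at 793, 826 and 809 CPM with lefamulin (log2 difference -0.47 ± 0.03). SERPINB3 was lower, by -2.01 ± 0.06, with 55.7, 53.8 and 57 CPM and 13.8, 13.9 and 13.5 CPM. Of the title genes, TNF differed by -0.24 ± 0.19 (95% interval -0.62 to 0.14, adjusted p = 0.341) and HNRNPU by 0.04 ± 0.03 (95% interval -0.01 to 0.10, adjusted p = 0.228). Neither was called. The intervals cover the spread between libraries under TMM scaling only, and error in the scaling itself is outside them. Mitochondrial ribosomal protein genes were lower with retapamulin in 33 of 78 cases and higher in 4. Cytosolic ribosomal protein genes were higher with retapamulin in 53 of 82 cases and lower in 1. Of 27 hnRNP genes, 14 were higher with retapamulin and 0 lower. List counts against lefamulin were made with TMM scaling only, so their dependence on the scaling was not tested.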

How the data were processed

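Per the labels, RNA libraries were made from HaCaT cells with a VAHTS Universal V6 kit; the extraction text of the labels speaks of mouse epidermis, unlike the human cell line label. HISAT2 and HTSeq are named in the submitters' processing notes; versions, genome build and strand settings were not given in the sources used here. Deposited by the authors were a table of whole-number counts for 22545 gene symbols and a table of FPKM. Each deposited FPKM equalled the count over a fixed length and the column total, within a coefficient of variation of 0.001, for 20422 of 20422 genes with counts in 2 or more libraries.

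The test was that of edgeR 4.0.16 (R 4.3.3): filterByExpr by group, TMM, and the quasi-likelihood test in 1 model of all 12 libraries, without covariates, with Benjamini-Hochberg adjustment over 14207 tested genes (8338 were not tested). It was checked on simulated data. Libraries held 35110519 to 37520999 counts, and the median SE of a log2 fold change was 0.07. Alternatives used DESeq2 1.42.0 and limma 3.58.1; limma ran on log2(FPKM + 1) and log2(FPKM + 0.1). Same-numbered M5 and retapamulin libraries did not deviate together (correlations 0.03, -0.14 and 0.15), so numbers were not taken as pairs.

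The comparison, 73 gene lists and named genes were chosen with earlier results of these data known; 1360 of 1388 list entries were matched. Named were the 12 largest rises and falls with at least 5 CPM and no overlap, the 8 largest FPKM differences each way, up to 3 called members each way per list (all members in lists of up to 8), TNF and HNRNPU, and 6 each way against lefamulin; not all are printed. Genes named for a promoter match, IVL, FLG, SBSN, SREBF2, MCM6, POLE2, CDT1, POLA2, AARS1 and IARS1, were outside that rule. DEFB103A and DEFB103B were also outside it and chosen after their values were seen. Where 0 counts were seen, folds are bounds against 3 counts over the group, and intervals and floors cover counting error only.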

Additional observations from a re-analysis of the deposited data

How the results depend on the processing

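Among 397 named genes, 386 of them called, 25 changed their call or direction under at least 1 of 15 alternatives, and those reversed were BAG3, YME1L1 and RALY. On library totals, log2(FPKM + 1) and log2(FPKM + 0.1) their log2 fold changes were -0.006376, -0.006106 and -0.00618 for BAG3, -0.03476, -0.03424 and -0.03473 for YME1L1, and -0.0293, -0.02815 and -0.02904 for RALY. The number of genes called higher and lower against M5 stayed within 1.5 times under all alternatives. With a block for replicate number 4838 were higher and 5374 lower. The share of called genes that were higher was 47.3%, and 50.9% without retapamulin replicate 2 or 3. At least 2-fold, 537 were higher and 451 lower on log2(FPKM + 1), and 920 higher on log2(FPKM + 0.1), where the pseudocount shrinks folds of low genes. Against lefamulin, 1663, 1593 and 1539 were higher and 4434, 4171 and 4289 lower on library totals, log2(FPKM + 1) and log2(FPKM + 0.1).

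Of 2040 list counts compared, 76 moved by over 1.5 times. On library totals and both FPKM scales, 67, 68 and 68 cytosolic ribosomal proteins fell, and 2, 1 and 1 rose. The same 3 settings gave, in each, 5 higher and 8 lower MHC class I genes, 10 tRNA synthetases lower, 7 NRF2 targets higher, 4 TRP channels lower and 3 mitochondrial mRNAs higher. They also gave 2 lower in the hemidesmosome, cadherin and cornified lists, 1 lower in the unfolded protein response, 1 higher among mitochondrial chaperones, mitochondrial ribosomal proteins and aryl hydrocarbon receptor genes, and 0 higher in mitosis, ribosome biogenesis and hnRNP genes. RLE size factors and DESeq2 each gave 0 cadherin genes, 3 BCL2 genes and 4 AU-rich decay genes lower. A filter of CPM above 1 in 3 libraries left 8 histone genes lower, since fewer were tested. Leaving out 1 replicate gave 17 to 28 cytosolic ribosomal proteins, 12 to 21 proteasome, 4 to 7 AU-rich decay, 3 to 5 BCL2 and 5 to 7 retinoid genes lower. It also gave 0 to 2 cornified, 1 to 2 fatty acid and 0 to 1 cadherin genes lower, and 0 to 1 mitotic, 1 to 2 mitochondrial ribosomal and 1 to 2 hnRNP genes higher. Where the construction does not show it, the cause was not tested.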

Other observations

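Several gene groups outside the account above also moved with retapamulin. Of 6 genes for metallothioneins and zinc export 6 rose. MT2A, a metal-binding protein, went from 553, 463 and 507 CPM in the M5 libraries to 986, 997 and 1064 CPM in the retapamulin libraries (log2 fold change 1.00 ± 0.06), and MT1E from a mean of 84.9 to 303 CPM. Metallothioneins are close relatives, and reads shared among them are uncertain. The aryl hydrocarbon receptor gene AHR fell from 186, 191 and 206 CPM to 82.2, 78.9 and 79.4 CPM (log2 fold change -1.28 ± 0.05), and its targets CYP1B1 and CYP1A1 from a mean of 178 to 31.8 CPM and from a mean of 1.27 to 0.228 CPM. TIPARP, another target, rose from a mean of 79.1 to 131 CPM. Of 19 NRF2 targets 11 rose and 7 fell, and 7 rose with library totals. TXNRD1, thioredoxin reductase, rose from 352, 344 and 355 CPM to 673, 690.5 and 686 CPM, and the aldo-keto reductase gene AKR1C2 fell from a mean of 168 to 44.7 CPM.

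Genes of prostaglandin handling fell in 9 of 10 cases. SLCO2A1, the prostaglandin importer, had 0.775, 0.385 and 0.59 CPM with M5 and 0 counts in the retapamulin libraries, at least 19.8-fold lower against a floor of 3 counts over the group. PTGER2, a receptor for prostaglandin E2, fell from a mean of 2.57 to 0.692 CPM. The member that rose was ALOX12B, a lipoxygenase of the epidermal barrier, from 0.24, 0.0824 and 0.322 CPM to 3.1, 3.72 and 2.65 CPM (log2 fold change 3.85 ± 0.34). TGF-beta and activin signalling genes were mixed, with 11 of 19 higher and 7 lower, at a median log2 fold change of 0.19. The ligand genes TGFB2 and TGFB3 fell from a mean of 16.7 to 1.66 CPM and from a mean of 0.934 to 0.0694 CPM. ID1, a target of BMP signalling, fell from 297, 302 and 296 CPM to 57.6, 53.5 and 56.7 CPM (log2 fold change -2.42 ± 0.05). FST, which encodes the activin antagonist follistatin, rose from 93.2, 88.3 and 83.2 CPM to 327, 342 and 331 CPM (log2 fold change 1.92 ± 0.04). Glycolytic and hypoxia-inducible genes did not share a direction, with 18 of 32 higher and 13 lower. NDRG1 rose from 77.1, 66 and 72.3 CPM to 326, 336 and 345 CPM, while CA9 fell from a mean of 2.58 to 1.28 CPM and EPAS1, the hypoxia factor HIF-2-alpha, from a mean of 276 to 142 CPM. BCL2 family genes were mixed as well, with 8 of 15 higher and 5 lower, at a median log2 fold change of 0.11. BCL2L1, which protects from apoptosis, rose from 138, 138 and 134 CPM to 353, 363 and 368 CPM (log2 fold change 1.40 ± 0.04). BCL2L11, which promotes apoptosis, fell from 39.4, 37.9 and 42 CPM to 21.6, 22.4 and 20.7 CPM (log2 fold change -0.88 ± 0.06).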
